A study of Homo sapiens with 5 samples.

Results

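The clustered, replication-dependent histone genes were examined in 5 human pancreatic cell lines, each measured once on a 1-colour Affymetrix expression array. Members were the genes whose probe sets carried a single symbol of the form H1-1 to H1-5, H2AC, H2BC, H3C or H4C plus a number. There were 41 of them among 19775 named genes, 5 encoding linker histone H1, 8 H2A, 13 H2B, 7 H3 and 8 H4, and 39 lay on chromosome 6 and 2 on chromosome 1. For each gene the probe set with the highest mean over the 5 arrays was used. That mean chose the probe set and is not itself a result. PANC1, HPAF1, SU86.86 and L3.6 are carcinoma lines, and HPDE is known as an immortalised line of normal duct epithelium, although the source label groups all 5 lines as pancreatic cancer. The labels give no treatment, allele or passage for any of them, and each line is 1 culture on 1 array, so no line's value has an error of its own.

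Replication-dependent histone genes supply the core histones H2A, H2B, H3 and H4 and the linker histone H1 that package newly made DNA. In dividing cells they are switched on in S phase, and their mRNAs normally end in a conserved stem-loop, bound by SLBP, in place of a poly(A) tail. Some of these genes also give polyadenylated transcripts, which are described in cells that have left the cycle or are differentiating. One-cycle labelling kits of the kind named in the labels prime from poly(A), so the arrays read mainly polyadenylated forms, and how much of each gene's RNA this covers was not measured.

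Levels are deposited intensities, and differences are on the scale log2(intensity + 71.1), where 71.1 is the 25th percentile of the positive values. Such differences understate the fold of dim genes. A gene passed the level filter when its highest line reached an intensity of 140.2, the median of all probe sets. Of the 41 members 23 passed, 5 of these through 1 line alone, so counts over the 23 partly follow from the filter and are given beside counts over all 41. The 18 others stayed at or below an intensity of 129.6 on every array, and the widest of them, H2AC8, spanned 0.67. H2AC4 lay just below the filter, with its highest value of 129.6 in HPAF1, and H4C1 just above it, at 141.5 in SU86.86.

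The family did not act as 1 block. The lines spanned at least 2-fold for 12 of the 41 members, against 32.7% of all genes, which is near the background. Among the 23 members past the filter the share was 52.2%, against 43.1% of all genes past it. What the 12 had in common was the line at the top, which was HPAF1 for 11 of them, against 21.1% of all genes that spanned 2-fold, and HPDE for H4C11. Without the HPAF1 array, 7 members spanned 2-fold. Leaving out an array can never widen a span, and the matching share of all genes is not given, so this drop cannot be weighed. Over all 41 members HPAF1 was highest for 22, while it was highest for 24% of all genes. L3.6 was highest for 6 (21.8% of all genes), SU86.86 for 5 (14.5%), PANC1 for 3 (19.8%) and HPDE for 5 (19.8%). SU86.86 was lowest for 17 members, against 25.7% of all genes, PANC1 for 8 (16.4%), HPAF1 for 3 (20.7%), L3.6 for 2 (13.7%) and HPDE for 11 (23.5%). Compared with the mean of the other 4 lines, 10 of 41 members were at least 2-fold higher in HPAF1, where 5.39% of all genes were, and 0 were at least 2-fold lower, where 4.89% were. All 10 were among the 23 past the filter, where the background was 7.13%. This comparison by size was chosen after the data were seen. The 10 were H1-2, H2AC6, H4C8 and the H2B genes H2BC4, H2BC5, H2BC6, H2BC9, H2BC12, H2BC17 and H2BC21.

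**Figure D1:**
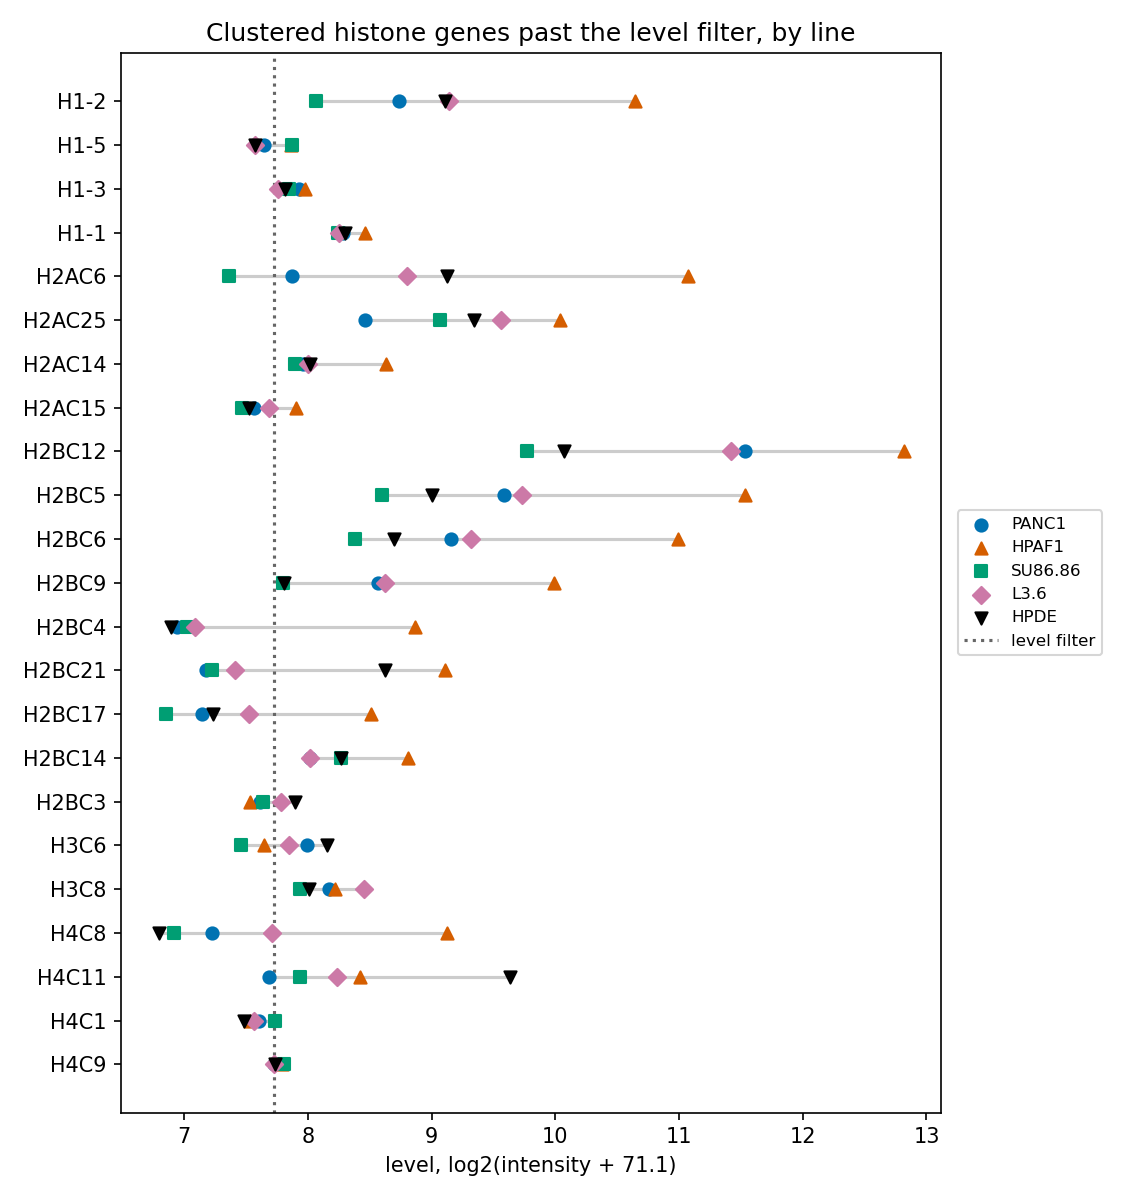
Level of the 23 histone genes past the level filter (dotted line) in each of the 5 lines, as log2(intensity + 71.1), grouped by H1, H2A, H2B, H3 and H4, with 1 point per array. HPAF1 is the rightmost point for most H2A and H2B genes and H1-2, while HPDE is rightmost for H4C11.

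With limma, 0 of the 23 members passed at an adjusted p of 0.05 for HPAF1 against the other 4 lines, where 0.262% of genes did. At an unadjusted p under 0.05 there were 10 members, all higher, against 5.47% of genes that were higher at that level. The lowest adjusted p was that of H2BC4, with a difference of 1.88 (SE 0.18, limma adjusted p = 0.0564). H2BC4 passed the level filter through HPAF1 alone, so its SE rests on 4 readings at background and its place near the threshold supports nothing by itself. That adjusted p was 0.0354 without the level filter, 0.0441 when every probe set of a gene was averaged, and 0.145 to 0.238 when PANC1, SU86.86, L3.6 or HPDE was left out. These p-values set HPAF1 against the spread between 4 different lines and not between cultures. Of the 10 higher members, H2BC4, H4C8 and H2BC17 passed the level filter through HPAF1 alone, so their direction was partly set by the filter. H2AC6, H2AC14, H2BC5, H2BC6, H2BC9 and H4C8 were read by probe sets whose names mark possible matches to several transcripts. The 10 are therefore not independent readings.

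Linker histone H1 compacts the nucleosome fibre, and 1 of its 5 members, H1-2, differed by 2-fold or more between lines. The intensity of H1-2 was 1525 in HPAF1, 493 in L3.6, 356 in PANC1, 197 in SU86.86 and 481 in HPDE. HPAF1 stood alone at the top, L3.6 and HPDE were level, and SU86.86 was lowest. HPAF1 was higher than the mean of the other lines by 1.88 (SE 0.48, limma adjusted p = 0.296). H1-1 read 281 in HPAF1, 240.1 in PANC1, 233 in both SU86.86 and L3.6, and 245 in HPDE. H1-3 lay between 145 and 180.4 and H1-5 between 119 and 164 over the 5 lines, and H1-4 stayed below the filter, at 53.4 or less. These 4 H1 genes spanned 0.30 or less on the log2 scale.

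Among H2A genes, H2AC6 had the widest span of any member. Its intensity was 2082 in HPAF1, 375 in L3.6, 163 in PANC1, 93.5 in SU86.86 and 487 in HPDE. HPAF1 exceeded the next line, HPDE, by 1.95, and SU86.86 was below the filter. Against the mean of the other 4 lines the difference was 2.78 (SE 0.75, limma adjusted p = 0.320). H2BC4, an H2B gene, is the divergent neighbour of H2AC6, and by the RefSeq promoter sequences, 245 bases lie between their starts. H2BC4 read 395 in HPAF1, 64.8 in L3.6, 58.6 in SU86.86, 51.6 in PANC1 and 48.0 in HPDE. It was above the filter in HPAF1 alone, and its other 4 readings were at background, close to each other.

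Of the space between these 2 starts, 220 bases are shown because both genes were highest in HPAF1, with the sequences before H2BC12, H2BC5, H1-2 and H4C11 for comparison. Capitals mark, on either strand, the octamer ATTTGCAT bound by POU2F1, the H1 box AAACACA, the CCAAT box and the TATA box TATAAA. All are RefSeq sequences of build GRCh38.p14, each ending at the base before the start. They lie at chr6:26123952-26124171 on the plus strand (H2AC6), chr6:27146859-27146978 on the minus strand (H2BC12), chr6:26158001-26158120 on the plus strand (H2BC5), chr6:26056471-26056630 on the minus strand (H1-2) and chr6:27823972-27824091 on the plus strand (H4C11).
H2AC6: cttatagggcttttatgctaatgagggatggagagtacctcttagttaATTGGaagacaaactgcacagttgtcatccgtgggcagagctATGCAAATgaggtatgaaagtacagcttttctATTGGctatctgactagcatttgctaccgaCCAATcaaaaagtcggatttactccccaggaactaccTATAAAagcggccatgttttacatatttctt
H2BC12: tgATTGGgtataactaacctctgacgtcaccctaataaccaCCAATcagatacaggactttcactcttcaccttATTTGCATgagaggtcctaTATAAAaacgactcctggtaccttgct
H2BC5: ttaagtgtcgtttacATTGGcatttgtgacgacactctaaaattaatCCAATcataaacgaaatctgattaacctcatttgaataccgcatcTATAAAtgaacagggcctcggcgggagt
H1-2: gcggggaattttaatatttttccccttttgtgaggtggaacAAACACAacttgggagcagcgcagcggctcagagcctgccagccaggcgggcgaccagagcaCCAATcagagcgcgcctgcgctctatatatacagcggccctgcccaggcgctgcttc
H4C11: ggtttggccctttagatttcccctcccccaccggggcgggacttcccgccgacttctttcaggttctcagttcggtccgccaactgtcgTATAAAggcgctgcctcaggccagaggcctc

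Promoter sequences were found for 39 of the 41 members, and 250 bases before each start were searched, with no overlap between different motifs. ATTTGCAT was present for 10 of 13 H2B and 6 of 8 H2A genes and for 0 of the 18 H1, H3 and H4 genes, against 2.03% of all genes in the table. The H2AC6 window and that of H2BC4 hold the same copy. AAACACA was present for 5 of 5 H1 genes and 0 of the other members, against 5.95% of all genes. CCAAT was present for 34 of 39 members, against 37% of all genes, and TATAAA for 27 of 39, against 13%. The octamer stood before 7 of the 12 members that spanned 2-fold or more and 9 of the 27 that did not. The 12 include 2 H2A and 7 H2B genes, the only classes that carry it here. These shares therefore cannot be read apart from class. H1-4 carries AAACACA as H1-2 does, and its readings were at background in every line. Whether any of these motifs bears on the levels was not tested. In the order of members along chromosome 6, H1-2, H2BC4, H2AC6, H1-4, H2BC5 and H2BC6 follow one another. Of these H1-4 alone was not 2-fold higher in HPAF1 than in the mean of the others. This stretch was picked after the values were seen, and no other stretch was counted beside it. Histone genes without a single-symbol probe set are left out of the order. H2AC6, H2BC5 and H2BC6 were read by probe sets that may match several transcripts, and H2BC4 passed the filter through HPAF1 alone.

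The remaining H2A genes varied less. H2AC25, which lies on chromosome 1, read 982 in HPAF1, 686 in L3.6, 466 in SU86.86, 282 in PANC1 and 579.9 in HPDE. PANC1 was lowest there. Its log2 difference from the mean of the rest was -1.04 (SE 0.41, limma adjusted p = 0.923). A second H2AC25 probe set was flat, between 99.4 and 119.6. H2AC14 read 324 in HPAF1 and between 167 and 188 in the other 4 lines. H2AC15 passed the filter in HPAF1 alone, at 169. Its second probe set was flat and below the filter, between 87.1 and 100.7.

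H2B is the partner of H2A in the nucleosome, and HPAF1 exceeded the mean of the others by 2-fold or more for 7 of the 13 H2B members. H2BC12 read 7144 in HPAF1, 2896 in PANC1, 2663 in L3.6, 801 in SU86.86, with 1003 in HPDE. Here the lines fell into 3 levels, with HPAF1 at the top, PANC1 and L3.6 together in the middle, and SU86.86 and HPDE together at the bottom. The difference of HPAF1 from the other 4 was 2.12 (SE 0.83, limma adjusted p = 0.516).

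The same 3 levels were seen for H2BC5, at 2892 in HPAF1, 780.4 in L3.6, 697 in PANC1, 318 in SU86.86 and 441 in HPDE. H2BC6 read 1963 in HPAF1, 568 in L3.6, 501 in PANC1, 263 in SU86.86 and 343 in HPDE. H2BC9 read 945 in HPAF1, 324 in L3.6, 308 in PANC1, 152 in SU86.86 and 153 in HPDE. H2BC5, H2BC6 and H2BC9 were each read by a probe set whose name marks possible matches to several transcripts, and H2B coding sequences are nearly identical. The gene that each of these signals comes from is therefore uncertain, and they are not independent readings. H2AC6, H2BC21 and H4C11 were read by such probe sets too, while H1-2, H2BC4, H2BC12 and H2BC17 were read by probe sets without that mark. With marked probe sets left out, 5 members, not 10, were at least 2-fold higher in HPAF1 than in the mean of the others.

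H2BC21, on chromosome 1, had another pattern. It read 480.2 in HPAF1, 99.2 in L3.6, 78.2 in SU86.86, 73.5 in PANC1 and 324 in HPDE. HPAF1 and HPDE were above the filter and the other 3 lines below it. H2BC17 read 294 in HPAF1, 112 in L3.6, 70.6 in PANC1, 44.8 in SU86.86 and 79.4 in HPDE, and was above the filter in HPAF1 alone. H2BC14 read 377 in HPAF1 and between 188 and 237 elsewhere. H2BC3 was the H2B gene past the filter that was not highest in HPAF1, at 114 in HPAF1, 124 in PANC1, 128 in SU86.86, 149 in L3.6, with 167 in HPDE. H2BC17, H2BC14 and H2BC3 were picked for mention after their values were seen.

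H3 and H4 form the centre of the nucleosome, and most of their members were dim. Of 7 H3 genes 2 passed the filter and 0 spanned 2-fold. H3C8 read 279 in L3.6, 227 in HPAF1, 217 in PANC1, 174 in SU86.86 and 186 in HPDE. H3C6 read 184 in PANC1, 159 in L3.6, 129 in HPAF1, 104 in SU86.86 and 213 in HPDE, and its second probe set was instead highest in SU86.86, at 147.

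Of 8 H4 genes 4 passed the filter, and 2 of these differed by 2-fold or more. H4C8 read 486 in HPAF1, 138 in L3.6, 78.1 in PANC1, 50.03 in SU86.86 and 39.8 in HPDE. HPAF1 was the only line above the filter, with a difference from the others of 1.96 (SE 0.40, limma adjusted p = 0.217). Its second probe set, without the mark for several transcripts, read 416 in HPAF1, 138 in L3.6, 91.7 in PANC1, 55.4 in SU86.86 and 56.1 in HPDE, in nearly the same order. H4C1 and H4C9 differed by 0.25 or less between lines.

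Of the 12 members that spanned 2-fold, H4C11 alone had HPDE at the top. Its intensity was 272 in HPAF1, 230.0 in L3.6, 135 in PANC1 and 173 in SU86.86, against 725 in HPDE. All 4 carcinoma lines lay below HPDE, by 1.21 to 1.95 on the log2 scale. The mean of the 4 minus HPDE was -1.57 (SE 0.34, limma adjusted p = 0.395), and it was 1 of the 23 members at an unadjusted p under 0.05 in that comparison, where 8.22% of genes were. By size, H4C11 was the 1 member at least 2-fold lower, against 5.04% of all genes, and H2BC12 the 1 member at least 2-fold higher, at 1.32, against 4.37%. Both counts turned on single arrays. Without HPAF1, 3 members were lower (H2AC6, H2BC21 and H4C11), against 5.39% of all genes, and 0 higher, against 4.75%. The number higher was 5 without SU86.86, against 4.23% of all genes, and 2 without PANC1, against 4.53%. In that comparison 0 members passed the adjusted threshold, against 0.0335% of genes.

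Each carcinoma line was also set against HPDE, with 1 array on each side and hence no test. In HPAF1 9 of 41 members were at least 2-fold higher, against 5.99% of all genes, and 1, H4C11, was lower, against 7.19%. The largest differences were 2.75 for H2BC12, 2.53 for H2BC5 and 2.33 for H4C8. PANC1 had 1 member at least 2-fold higher, H2BC12 at 1.47, against 6.51% of genes, and 3 lower, against 7.19%: H4C11 at -1.95, H2BC21 at -1.45 and H2AC6 at -1.25. L3.6 likewise had H2BC12 higher, at 1.35, against 5.08% of genes, and H4C11 (-1.40) and H2BC21 (-1.21) lower, against 6.66%. SU86.86 had 0 members higher, against 6.52% of genes, and 4 lower, against 5.98%: H2AC6 at -1.76, H4C11 at -1.70, H2BC21 at -1.40 and H1-2 at -1.04. For PANC1, SU86.86 and L3.6 the counts were 4 or fewer, too few to read against these shares.

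The median difference over the 23 members past the filter was 0.54 for HPAF1 minus HPDE, against 0.02 over all genes past it. It was -0.01 for PANC1, -0.12 for SU86.86 and 0.03 for L3.6, against 0.03, -0.02 and 0.03 over all genes. Over all 41 members the HPAF1 median was 0.20. The same HPDE array enters all 4 differences.

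**Figure D2:**
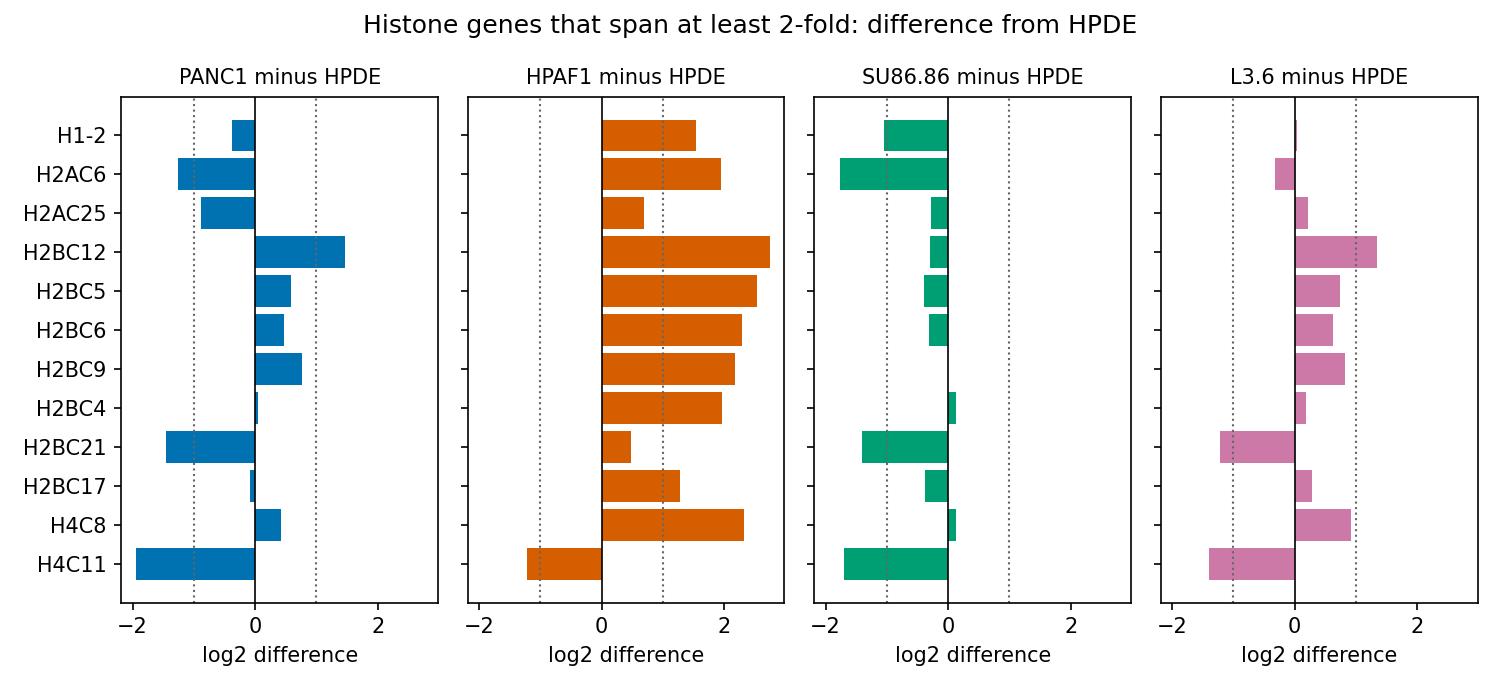
Log2 difference of each carcinoma line from HPDE for the 12 histone genes that spanned at least 2-fold, with 1 panel per line, 1 bar per gene and dotted lines at 2-fold. Bars in HPAF1 reach 2.75 for H2BC12, while H4C11 is below 0 in all 4 panels.

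Against the mean of the other lines, SU86.86 had 5 members at least 2-fold lower, H1-2, H2BC12, H2AC6, H2BC5 and H2BC6, against 2.06% of all genes, and 0 higher, against 4.1%. HPAF1, high for all 5, is part of that mean, and without it 2 were lower, H2BC12 and H2AC6, against 2.19% of all genes. PANC1 had 2 lower, H2AC25 and H2AC6, against 4.39% of genes, and 0 higher, against 4.17%. For PANC1 the counts without HPAF1 were 0 lower, against 4.2% of all genes, and 1 higher, H2BC12, against 3.89%. The count lower was 4 without SU86.86, against 4.68% of all genes, and 3 without L3.6, against 5.26%. L3.6 had 0 in either direction, against 2.37% higher and 3.73% lower. For PANC1, SU86.86 and L3.6 limma gave 0 members at an adjusted p under 0.05 and 0 at an unadjusted p under 0.05, where 5.53%, 3.79% and 3.4% of genes were. All genes were called at the adjusted threshold in 0.0201% of cases for PANC1 and 0% for SU86.86 and L3.6.

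Because many histone genes are nearly identical, 20 further probe sets were annotated to several genes that include clustered histones, and no single gene can be named from them. Of these, 14 passed the filter and 11 of the 14 spanned at least 2-fold, against 38.8% of all probe sets past it. HPAF1 was highest for 7 of the 11, against 20.3% of all probe sets that spanned 2-fold. Several of the 20 read the same genes, so they are not independent. A probe set for 5 H2B genes read 3019 in HPAF1, 899 in L3.6, 849.7 in PANC1, 327 in SU86.86 and 400.1 in HPDE, the same 3 levels as H2BC12. A set for H2AC18 and H2AC19 read 1856 in HPAF1, 605 in L3.6, 405 in PANC1, 421 in SU86.86 and 812 in HPDE. A brighter set for the same genes read 3316 in HPAF1, 2093 in L3.6, 1572 in PANC1, 941 in SU86.86 and 1443 in HPDE. Another, below the filter, was flat, between 87.6 and 108.0.

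The shared H4 probe sets did not follow 1 order. One, listed for 14 H4 genes, read 9326 in PANC1, 8927 in L3.6, 3618 in SU86.86, 2582 in HPAF1 and 2289 in HPDE. PANC1 and L3.6 were together far above the other lines there, and HPAF1 was close to HPDE. Another, listed for the same 14 genes, read 346 in HPAF1, 252 in L3.6, 156 in SU86.86, 105 in PANC1 and 617 in HPDE, which is the order of H4C11. A set for 10 H3 genes read 385 in HPAF1, 114 in L3.6, 63.0 in PANC1, 49.1 in SU86.86 and 62.3 in HPDE. Another set for the same H3 genes was flat and below the filter, from 73.0 in HPAF1 to 90.7 in L3.6.

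**Figure D3:**
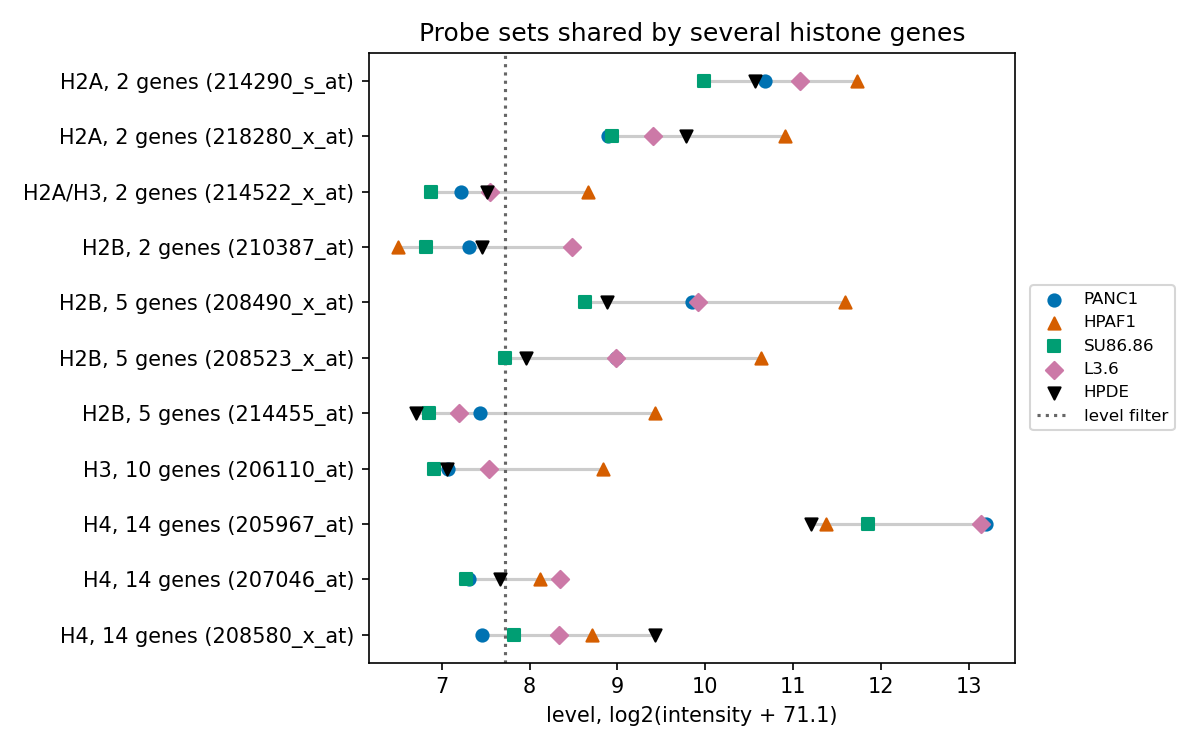
Level of the 11 shared histone probe sets that passed the filter and spanned at least 2-fold, as log2(intensity + 71.1), with the histone class, the number of genes listed and the probe set at the left. The points for HPAF1 are rightmost in 7 rows, and PANC1 and L3.6 lead in one of the 3 H4 rows.

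S phase genes, the other transcripts of replicating cells, were ordered differently from the histone members that were highest in HPAF1. Of 19 measured, 10 were lowest in HPAF1 and 9 in HPDE, against 22.3% and 22.7% of genes past the filter, and 12 were below the other lines' mean by 2-fold or more in HPAF1, against 6.48% of genes past the filter, with 0 higher. Limma gave 0 of them at the adjusted threshold. Their median difference of HPAF1 from the mean of the other lines was -1.09, with 1 array per line. RRM1, the large subunit of ribonucleotide reductase, read 766 in HPAF1, against 4228 to 6127 in the other carcinoma lines and 953 in HPDE. TYMS, which makes thymidylate, read 928 in HPAF1, between 4963 and 12188 in the other carcinoma lines, and 341 in HPDE. Each gene was centred on its own mean over the 5 lines. For the 19 S phase genes the median deviation was -0.87 in HPAF1, 0.59 in PANC1, 0.89 in L3.6, 0.49 in SU86.86, with -1.20 in HPDE. For the 23 histone genes past the filter it was 0.53 in HPAF1, -0.11 in PANC1, 0.00 in L3.6, -0.34 in SU86.86, with -0.09 in HPDE. Since 4 of these passed through HPAF1 alone, the filter raises the HPAF1 median, and over all 41 members it was 0.11 in HPAF1 and -0.12 in SU86.86. In HPAF1, SU86.86 and PANC1 the medians of the histone and S phase groups had opposite signs, while in HPDE both were below 0. The mean used for centring includes HPAF1, so a high or low HPAF1 value shifts the other lines' deviations the opposite way. The signs in the other lines therefore cannot be read apart from HPAF1. Over all 41 members the PANC1 median was -0.06. These medians leave out the shared probe sets. One of those, listed for 14 H4 genes, read 9326 in PANC1, 8927 in L3.6 and 3618 in SU86.86. It was lower in HPAF1, at 2582, and in HPDE, at 2289, the lines where the S phase genes were lowest.

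**Figure D4:**
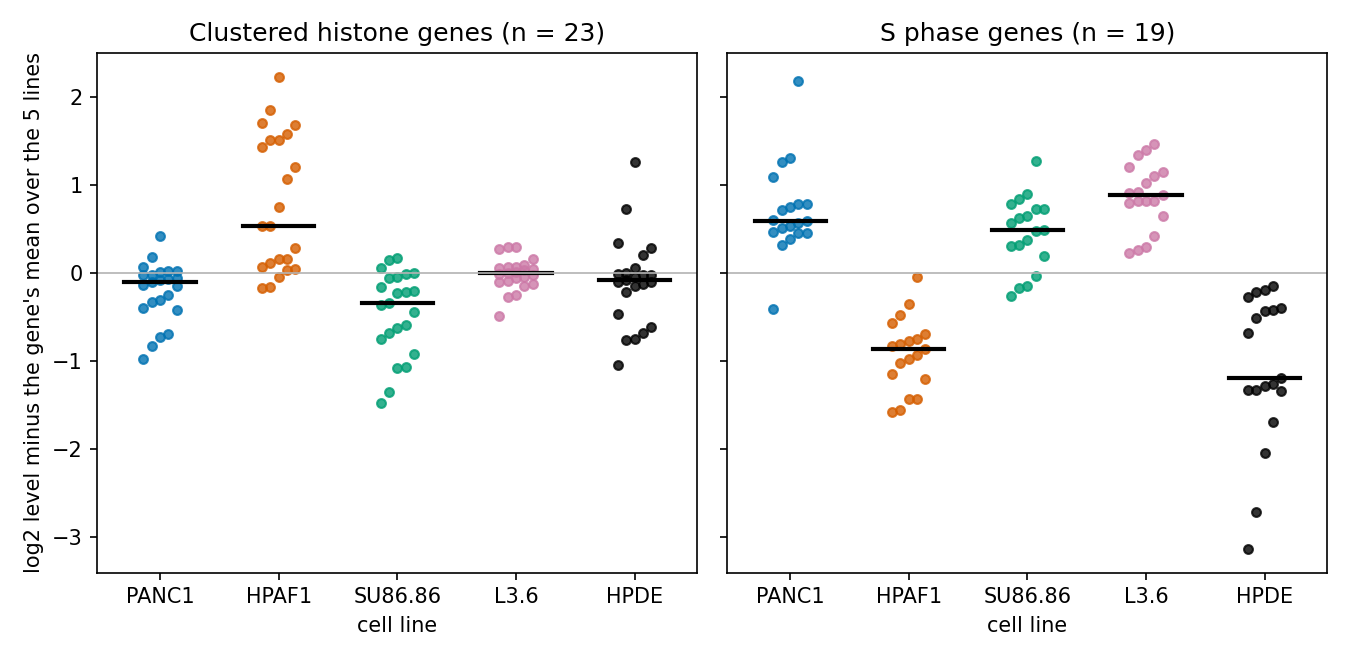
Log2 level of each gene minus its own mean over the 5 lines, by line, for the 23 histone genes past the filter (left) and 19 S phase genes (right), with a bar at each median. In HPAF1 the medians are 0.53 and -0.87, and in L3.6 they are 0.00 and 0.89.

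Genes that switch histone transcription on include NPAT, the substrate of cyclin E and CDK2 at the histone clusters. NPAT differed by 0.37 between lines and was highest in HPAF1, at 1074, against 816 to 876 in the other 4. CCNE1, a cyclin E, read 253 in HPAF1, 1576 in PANC1, 1628 in SU86.86, 976 in L3.6, with 464 in HPDE. CCNE2, the other cyclin E, read 177 in HPAF1, 744 to 1322 in the other carcinoma lines and 209.5 in HPDE. CDK2, their kinase, read 361 in HPAF1, 1056 to 1412 in the other carcinoma lines and 518 in HPDE. Of the 10 genes of this list past the filter, CCNE1, CCNE2 and CDK2 were at least 2-fold lower in HPAF1 than in the mean of the others and 0 were higher, and 0 had a limma p under 0.05 in either direction. Among all genes past the filter, 6.48% were at least 2-fold lower in HPAF1 and 7.13% higher. E2F1, a factor that drives S phase genes, and CASP8AP2, which joins histone transcription to 3' end processing, spanned 0.82 and 0.92.

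SLBP, which binds the histone stem-loop, read 2020 in HPAF1, 4661 in PANC1, 4582 in SU86.86, 2690 in L3.6, with 4072 in HPDE. HPAF1 was lowest, with a log2 difference of -0.93 from the mean of the others. LSM10, a protein of the U7 particle that cuts histone pre-mRNA, read 468 in HPAF1 and between 854 and 1380 in the rest. ZNF473, another U7 partner, stood apart in SU86.86 at 2149, against 220 to 291 in the other carcinoma lines and 328 in HPDE. CSTF2, a cleavage factor of both histone and polyadenylated mRNAs, read 825 to 1828 in the carcinoma lines, against 485 in HPDE. FIP1L1, of the polyadenylation machinery, read 432 in HPAF1 and 1234 in HPDE, and MIF4GD, which binds SLBP, was lowest in SU86.86 at 488. Of the 20 processing genes past the filter, 1 was at least 2-fold lower in HPAF1 than in the mean of the others. In that comparison 0 were higher and 0 passed limma. Of all genes past the filter 6.48% were at least 2-fold lower in HPAF1, so the count of 1 is near that share. The count lower was 3 without PANC1, 2 without SU86.86, 4 without L3.6 and 2 without HPDE. With 1 line left out, 4.79% to 5.61% of all genes, filtered or not, were lower in HPAF1.

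Histone chaperones carry new histones to DNA. Of 19 measured, 12 were lowest in HPAF1, against 22.3% of genes past the filter. In HPAF1 7 were at least 2-fold lower than in the mean of the others, against 6.48%, and 0 were higher, against 7.13%. Limma gave 0 at the adjusted threshold and 8 lower at an unadjusted p under 0.05, against 4.55% of genes. NASP, a carrier of H3 and H4 and of H1, read 1240 in HPAF1, 2744 to 4862 in the other carcinoma lines and 2683 in HPDE. MCM2, a helicase subunit that binds H3 and H4, read 1132 in HPAF1, 4632 to 5824 in the other carcinoma lines and 2310 in HPDE. ASF1B, an H3 and H4 chaperone of cycling cells, read 375 in HPAF1, 1249 to 2281 in the other carcinoma lines and 202 in HPDE. HJURP, the chaperone of the centromeric H3 variant, read 830 in HPAF1, 1769 to 2211 in the other carcinoma lines and 228 in HPDE, and the importin IPO4 read 579 in HPAF1 and 475 in HPDE.

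Variant histones outside the clusters are mostly made from polyadenylated mRNAs. Of 9 past the filter 1 was highest in HPAF1, against 23.5% of genes past it, and 0 were 2-fold from the mean of the others in either direction or had a limma p under 0.05 in that comparison. Without HPDE, 2 were lower, against 5.61% of all genes, filtered or not. H2AX, the variant phosphorylated at DNA breaks, is known to give both a stem-loop and a polyadenylated mRNA. It read 2450 in HPAF1, 5781 in PANC1, 7132 in SU86.86, 5911 in L3.6, with 1418 in HPDE. CENPA, the centromeric H3, read 333 in HPAF1, 852 to 1123 in the other carcinoma lines and 205 in HPDE. H2AZ2, a form of the variant H2A.Z, read 3447 in HPAF1, 5045 to 6453 in the other carcinoma lines and 2936 in HPDE. H2AJ, an H2A variant, read 3013 in HPAF1, 1205 to 1908 in the other carcinoma lines and 3302 in HPDE, and H1-10, a linker variant, was highest in HPDE at 2205.

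The arrays were alike in overall level, with medians between 137.4 and 143.2, and log2 readings of the 9 spike-in controls had an SD of at most 0.14 over the 5 arrays. The ratio of 3' to 5' control probe sets, a sign of RNA quality, was 1.02 to 1.04 for GAPDH on the 5 arrays, lowest in HPAF1. For ACTB it was 1.08 in HPAF1, 1.11 in PANC1, 1.02 in SU86.86, 1.22 in L3.6, with 1.34 in HPDE. Of 5 epithelial markers all passed the filter, and 4 were at least 2-fold higher in HPAF1 than in the mean of the others. The share of all genes past the filter that were so was 7.13%. Among leukocyte markers 1 of 3 past the filter, CD14, was 2-fold higher in HPAF1, the 4 measured summing to 903 in HPAF1 and 439.8 to 528 in the other lines, while PTPRC, which marks all leukocytes, stayed below the filter everywhere. Their part in the histone levels was not tested.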

How the data were processed

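RNA of 5 cell lines was measured on 1 array each. The values deposited by the authors are linear intensity readings of 54675 probe sets, and the method that summarised and scaled them is not given here. Groups are the lines named in the labels. Of the probe sets, 41091 carried 1 gene symbol and 1801 several. RefSeq GRCh38.p14 symbols were found for 41037 single-symbol probe sets. Intensities were used as deposited, transformed as log2(intensity + 71.1), with 1 probe set per gene by highest mean. Of 19775 genes, 14913 passed the level filter. In limma 3.58.1 (R 4.3.3) a contrast set each line against the other 4, two-sided, at a Benjamini-Hochberg adjusted p of 0.05 over 14913 genes. With 3 residual degrees of freedom, a single line is taken to vary like the rest. The limma step was tested on simulated data. The differences added there were larger than any member's difference from the other lines here, so its power at these sizes is not known. Differences from HPDE have 1 array on each side and no p-value. The naming rule took all H1 members; in each other class the 6 members past the filter with the widest range and the one with the highest mean; members past limma; the 3 largest differences from HPDE each way per line; SLBP, NPAT and up to 5 widest-ranging genes of each related list. The members and lists were chosen with earlier results of these data known. Alternatives changed the added constant, the normalization, the level filter, the probe sets and the lines in the fit. Precision is limited by having 1 array per line.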

Additional observations from a re-analysis of the deposited data

How the results depend on the processing

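No paired analysis was possible because each line has 1 array. Of the repeated results, 212 moved by less than 1.5 times (counts) or by less than the largest spike-in standard deviation (medians), and 38 moved by more. The PANC1 median, near 0 at -0.01, took the other sign without the level filter (0.04), with quantile normalization (0.04) and with the stricter filter (0.04). Leaving out probe sets whose names mark several possible transcripts moved most. The members at least 2-fold above the mean of the other lines in HPAF1 were then 5 in place of 10, a count added after seeing the data, and over its other alternatives that count was 9 to 11. Those above HPDE in HPAF1 were 5 in place of 9, and those below HPDE were 0 in HPAF1, 0 in L3.6, 0 in PANC1 and 1 in SU86.86. Against the mean of the other lines, those lower were then 1 in PANC1, 2 in SU86.86 and, for the other lines minus HPDE, 0. The members spanning 2-fold were 6 in place of 12, and the HPAF1 median was 0.38. H2AC6, H2BC5, H2BC6, H2BC9, H2BC21 and H4C11 are read here by such probe sets alone and drop out, which lowers the counts by construction. With an added constant of 16 or with none, 3 members were above HPDE in L3.6, and with none 2 were in PANC1. With 16 as with no constant, 4 were below the mean of the others in PANC1 and 9 in SU86.86, and the mean of the others minus HPDE had 3 higher and 2 lower. With no level filter the HPAF1 median was 0.20, and with the stricter filter the medians were 1.97 in HPAF1, 0.22 in L3.6 and -0.31 in SU86.86, fewer genes being counted. For HPAF1 1 member, H2BC4, passed limma without the level filter and when all probe sets of a gene were averaged. Averaging also gave 1 lower in PANC1. Leaving out 1 line at a time gave 7 to 12 members spanning 2-fold, the 7 without HPAF1, and 0 members past limma in every comparison. It gave 2 to 7 lower and 0 higher in SU86.86, 0 to 4 lower and 0 to 1 higher in PANC1, 0 in either direction in L3.6, and 0 to 5 higher and 1 to 3 lower for the other lines minus HPDE, counts that were added after seeing the data. Of all genes, 1.98% to 2.62% were then lower in SU86.86 and 4.2% to 5.26% in PANC1, with 3.89% to 4.94% higher in PANC1. For the other lines minus HPDE, 4.23% to 4.82% of all genes were higher and 4.86% to 5.39% lower. Signal over background limits the rest, since 18 of the 41 members were below the level filter on every array.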

Other observations

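Histone genes with related symbols that the rule does not take were also on the array, 5 genes on 6 probe sets. H2BC12L, an H2B gene outside the clusters, read 3443 in HPAF1, 1071 in PANC1, 921 in L3.6, 331 in SU86.86, with 396 in HPDE, the 3 levels seen for H2BC12. Its probe set name marks matches to several transcripts. H1-6, the testis linker histone, stayed between 67.5 and 119.6 over 2 probe sets and all lines, and H3-4, the testis H3, between 109.3 and 118.7. The pseudogenes H4C10P and H2AC5P stayed at or below 99.5.

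Among probe sets shared by several genes, 1 listed for H2BC8 and H2BC11 was highest in L3.6 and lowest in HPAF1. It read 19.7 in HPAF1, 87.1 in PANC1, 42.3 in SU86.86, 286 in L3.6, with 104 in HPDE, so L3.6 alone was above the filter. A set for H3C4 and H2AC7 read 334 in HPAF1, 116 in L3.6, 78.3 in PANC1, 46.8 in SU86.86 and 111 in HPDE.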
